A study of Mus musculus with 18 samples.

Results

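The genes described here are 10 members of insulin and insulin-like growth factor signalling in the left ventricle: the ligand gene Igf1, the receptor genes Insr and Igf1r, the adaptor genes Irs1 and Irs2, the kinase gene Akt2, the transcription factor genes Foxo1 and Foxo3, and the ubiquitin ligase genes Fbxo32 and Trim63. They were chosen by name for their place in the pathway and not by a measured value, though with earlier results of these data known. All 10 were among the 55450 genes of the count table, and all 10 were among the 16270 genes tested after a filter on low counts. RNA sequencing was done on left ventricles of FVB/N mice, either wild-type (WT) or carrying a transgene that overexpresses Gαq in the heart. Gαq, encoded by Gnaq, is a G protein subunit that couples receptors for hormones such as angiotensin to phospholipase C. From the age of 4 weeks until tissue was taken at 20 weeks, the mice ate either unsupplemented chow (control diet, CD) or chow that held 0.5 mg/g ertugliflozin (ERTU), which blocks the renal glucose transporter SGLT2. The Gαq libraries numbered 5 on CD and 4 on ERTU and the WT libraries 4 on CD and 5 on ERTU, each from 1 left ventricle, and the groups share strain, tissue and age. The transgene is cardiac-specific, while the drug in the chow reached the whole animal.

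Insulin and insulin-like growth factor 1 bind related receptor tyrosine kinases, which recruit the adaptors IRS1 and IRS2 and, through a lipid kinase, activate AKT kinases such as AKT2, the isoform best known for insulin-stimulated glucose uptake. Active AKT phosphorylates the FoxO factors and keeps them out of the nucleus. When insulin is low, as in fasting, nuclear FoxO factors raise transcription of the atrogenes, among them Fbxo32 (atrogin-1) and Trim63 (MuRF1), ubiquitin ligases of striated muscle that mark contractile and other proteins for the proteasome, and also of Irs2. Most of this control acts on protein and its location, which mRNA counts do not show.

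Libraries held between 15383566 and 20908363 counts, and log2 CPM (read-pair counts scaled to a common library size) of libraries of 1 group correlated at r = 0.971 to 0.988. Libraries are named by group and by the number in the table, which runs across the series. Gnaq lay between 45.5 and 230 CPM in the 9 WT libraries and between 1641 and 11672 CPM in the 9 Gαq libraries, so every library fit its genotype label. Among Gαq hearts its mean was 7473 ± 3818 CPM on CD and 3216 ± 1371 CPM on ERTU (SD, n = 5 and 4), and the part of this level in the differences between diets in Gαq was not tested. Cardiomyocyte markers summed to 30843 to 46511 CPM per library, and all 8 were detected. Skeletal muscle markers, which matter for Fbxo32 and Trim63 because both are also skeletal muscle genes, summed to at most 7.72 CPM. Atrium markers summed to between 2.26 and 703 CPM per library and fat markers to between 1.55 and 83.4 CPM. The hearts were thus not uniform in these lists, whose part in the member differences was not tested. As lists, the 8 fibroblast markers and the skeletal muscle markers were higher and the 7 endothelium markers lower in Gαq, and all are given beside the genotype results. In bulk tissue, fewer cells of a type and less RNA per cell cannot be told apart.

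Compared per kilobase of exon, so that genes of different length share a scale, the atrogenes were the most abundant members. In WT CD hearts the mean level was 115 CPM per kb for Trim63 and 37.6 for Fbxo32. Akt2 (20.4 CPM per kb), Foxo3 (17.7) and Insr (16.7) followed, and the ranges of neighbours among these 3 overlapped. The remaining 5 lay lower, Foxo1 at 5.77, Irs2 at 4.02, Irs1 at 3.38, Igf1 at 2.83 and Igf1r at 2.69 CPM per kb, again with overlapping ranges between neighbours. The ranges of Trim63 and Fbxo32, of Fbxo32 and Akt2, and of Insr and Foxo1 did not overlap in WT CD. Trim63 and Fbxo32 held the first and second place in all 4 groups, whereas Irs2 held rank 7 in 3 groups and rank 10, at 2.78 CPM per kb, in Gαq CD. The fewest counts behind any value were 265, for Irs2 in a WT CD heart.

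**Figure D1:**
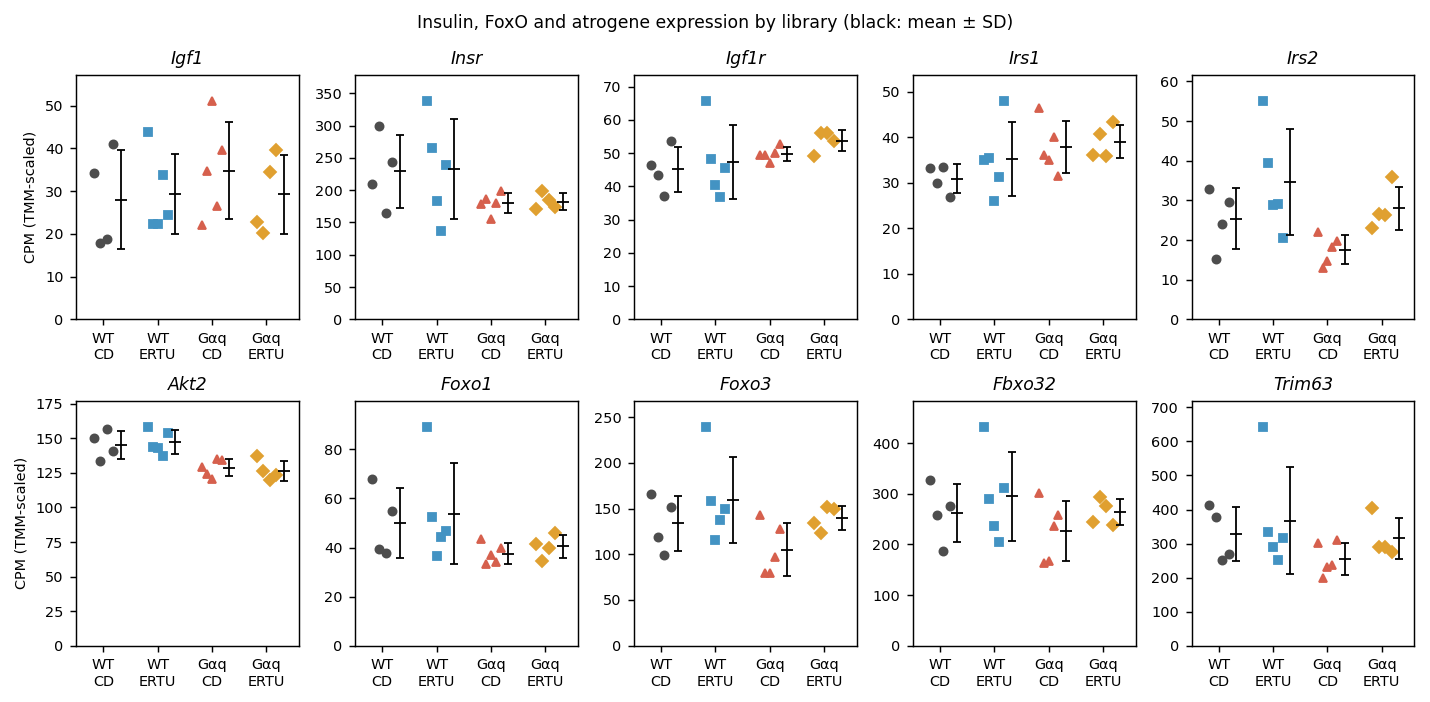
TMM-scaled CPM of the 10 genes in each library (points) by group, with the group mean and SD in black; each y axis starts at 0. Akt2 is lower in both Gαq groups with little spread, Irs2 is highest in WT ERTU and lowest in Gαq CD, and 1 WT ERTU heart is the highest of its group in 9 of the 10 panels.

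The comparison of genotypes asked how the pathway differed between Gαq and WT hearts on both diets together. Akt2 and Foxo1 fell in Gαq, and the other 8 genes did not pass the adjusted threshold of 0.05 (edgeR quasi-likelihood test, adjusted over all genes). Over all genes tested, 19.6% were called in this comparison, 9.72% higher and 9.92% lower, so 2 of 10 members is close to the background. In all, 5 of 10 had an unadjusted p under 0.05 (Akt2, Foxo1, Insr, Irs1 and Irs2), against 31.9% of all genes. The median log2 difference was -0.23 over the 10 genes and 0.0038 over all genes, with 7 members lower and 3 higher. Fibroblast markers were higher in Gαq by a mean of 0.65 log2 units with CD (exact permutation p = 0.0238) and of 0.68 with ERTU (0.0159), each with an adjusted exact permutation p of 0.381 over 36 tests, and 6 of the 8 genes were called higher. Their summed level was 1365 to 2537 CPM in WT and 2492 to 3608 CPM in Gαq libraries, and its part in the member differences was not tested. Endothelium markers were lower in Gαq by a mean of 0.17 log2 units with CD (exact permutation p = 0.151) and of 0.16 with ERTU (0.0952). The adjusted exact permutation p was 0.494 and 0.429. Of these 7 genes, 6 were lower and 2, Cdh5 and Tie1, were called lower by edgeR. The part of the endothelium list in the member differences was not tested either. Of 6 skeletal muscle markers, 2 were tested, Tnnt3 and Pvalb, and both were called higher in Gαq by edgeR. Their mean was higher by 1.07 log2 units with CD (exact permutation p = 0.0714) and by 1.59 with ERTU (0.0556). The adjusted exact permutation p was 0.429 for each. Their level was low, as given above, and their part in the member differences was not tested.

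**Figure D2:**
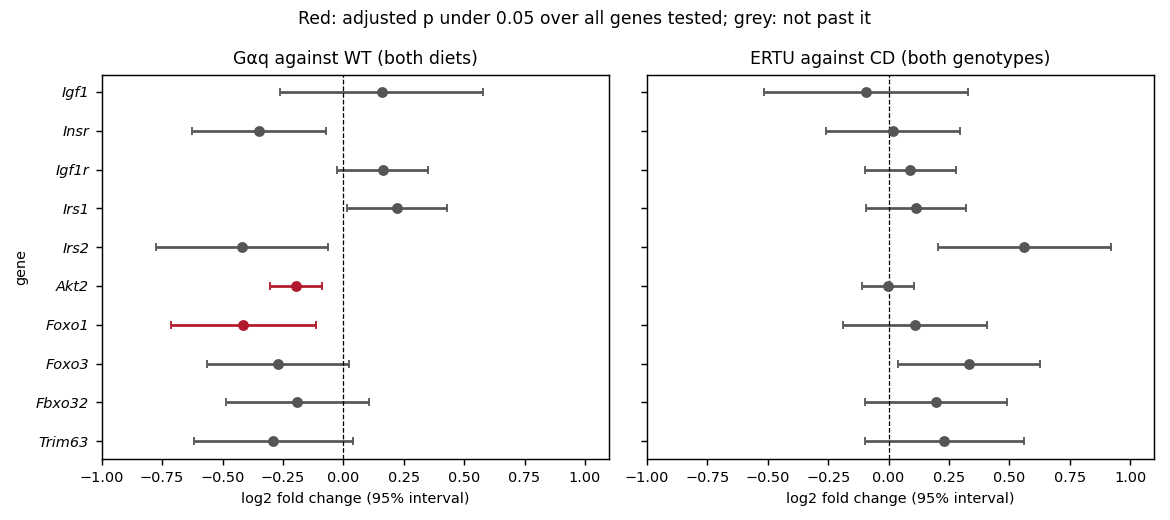
Log2 fold change of the 10 genes with its 95% interval for Gαq against WT over both diets (left) and for ERTU against CD over both genotypes (right); red marks an adjusted p under 0.05 over all genes tested. Akt2 (-0.20) and Foxo1 (-0.41) are red for genotype, none is red for diet, and the diet intervals of Irs2 and Foxo3 lie above 0.

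Akt2 (ENSMUSG00000004056, GRCm38 chromosome 7, 27591552 to 27640826, plus strand) had the narrowest range of the set, 1.32-fold from the lowest to the highest library. It stood at 150, 134, 157 and 141 CPM in WT CD and at 158, 144, 143, 137 and 154 CPM in WT ERTU. In Gαq CD it was 129, 124, 121, 135 and 134 CPM, and in Gαq ERTU 137, 126, 120 and 123 CPM. All 9 WT values were at least 133.8 CPM, and 6 of the 9 Gαq values lay below that level. The ERTU groups came close without overlap, with the lowest WT heart at 137.1 and the highest Gαq heart at 137.0 CPM. Akt2 fell to 0.873 of the WT level in Gαq (log2 -0.20 ± 0.053 SE, adjusted p = 0.0106 by edgeR). With no filter on low counts the adjusted p was 0.0652. The log2 difference was -0.18 on CD (adjusted p = 0.180) and -0.22 on ERTU (adjusted p = 0.0910), neither past the threshold. The coefficient of variation within groups was 4.8% to 7.0%.

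Foxo1 (ENSMUSG00000044167, chromosome 3, 52268336 to 52353221, plus strand), the FoxO factor best known for insulin-dependent control of metabolism, varied far more among WT hearts. It measured 68.1, 39.3, 37.7 and 54.7 CPM in WT CD and 89.1, 52.3, 36.4, 44.2 and 46.9 CPM in WT ERTU. In Gαq it measured 43.4, 33.1, 36.8, 34.0 and 39.8 CPM on CD and 41.5, 34.5, 39.9 and 45.8 CPM on ERTU. The groups overlapped: the highest WT values were well above every Gαq value, but the lowest WT values were within the Gαq range. Foxo1 fell to 0.751 of the WT level (log2 -0.41 ± 0.14 SE, 95% interval -0.71 to -0.11, adjusted p = 0.0472 by edgeR). This call was lost in 12 of 18 fits that each left out 1 library. It was kept only without WT CD 2, WT CD 4, Gαq CD 6, WT ERTU 13, WT ERTU 14 or WT ERTU 15, and the adjusted p over the 18 fits ran from 0.0218 to 0.123. Without WT ERTU 11, the heart with the highest value, the log2 difference was -0.29 (adjusted p = 0.0825). The differences within each diet were -0.42 on CD and -0.41 on ERTU, neither past the threshold (adjusted p = 0.263 and 0.266).

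Foxo3 (ENSMUSG00000048756, chromosome 10, 42181841 to 42276755, minus strand), the factor most often linked to muscle atrophy, read 166, 119, 99.5 and 151 CPM in WT CD and 239, 158, 116, 137 and 149 CPM in WT ERTU. In Gαq CD it read 143, 79.9, 79.2, 96.7 and 127 CPM, and in Gαq ERTU 134, 124, 151 and 150 CPM. The Gαq CD group split into 2 hearts at 127 CPM or more and 3 at 96.7 CPM or less, while the 4 Gαq ERTU hearts lay together. By genotype the log2 difference was -0.27 ± 0.14 (adjusted p = 0.194 by edgeR). By diet it was 0.33 ± 0.14 (95% interval 0.040 to 0.63, unadjusted p = 0.0279 and adjusted p = 0.639 by edgeR), which did not pass.

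The ligand Igf1 (ENSMUSG00000020053, chromosome 10, 87858265 to 87937042, plus strand) is made by many cell types of the heart, and its values were widely spread. It read 34.3, 17.9, 18.8 and 41.1 CPM in WT CD and 43.8, 22.4, 22.3, 33.9 and 24.4 CPM in WT ERTU. In Gαq it read 22.0, 34.6, 51.2, 26.6 and 39.7 CPM on CD and 22.8, 20.1, 34.5 and 39.6 CPM on ERTU. All 4 groups spanned nearly the same range, with a coefficient of variation of 31.8% to 41.1%. The genotype difference was 0.16 ± 0.20 on the log2 scale (95% interval -0.26 to 0.58, adjusted p = 0.637 by edgeR), an interval that leaves room for a change of either sign. On ERTU its sign changed with the filter and the test: -0.0014 as fitted, 0.0067 with no filter and 0.32 by limma voom, none past the threshold.

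The receptor genes differed from each other in sign. Insr (ENSMUSG00000005534, chromosome 8, 3122061 to 3279617, minus strand), the insulin receptor, read 210, 299, 165 and 243 CPM in WT CD and 338, 266, 183, 136 and 239 CPM in WT ERTU. It read 179, 187, 156, 181 and 199 CPM in Gαq CD and 170, 199, 185 and 175 CPM in Gαq ERTU. The 9 Gαq hearts fell between 156 and 199 CPM, and WT hearts lay both below and above that band. The coefficient of variation was 24.5% and 33.4% in the WT groups and 8.7% and 7.0% in the Gαq groups, a difference in spread that was not tested. The log2 difference in level was -0.35 ± 0.13 (adjusted p = 0.0723 by edgeR). It passed the threshold without WT CD 4 (adjusted p = 0.0346) or WT ERTU 14 (0.0119), the lowest heart of each WT group.

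Igf1r (ENSMUSG00000005533, chromosome 7, 67952827 to 68233668, plus strand), the receptor for insulin-like growth factor 1, read 46.4, 43.4, 37.1 and 53.5 CPM in WT CD and 65.7, 48.3, 40.3, 36.8 and 45.5 CPM in WT ERTU. It read 49.4, 49.3, 47.1, 50.1 and 52.6 CPM in Gαq CD and 49.2, 55.9, 56.1 and 53.6 CPM in Gαq ERTU. As with Insr, the Gαq values formed a narrow band, with a coefficient of variation of 4.0% and 6.0% against 15.1% and 23.7% in WT, but here the band lay among the higher WT values. The log2 difference was 0.16 ± 0.091 (adjusted p = 0.234 by edgeR). Without WT ERTU 11 it was 0.23 (adjusted p = 0.0360).

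Of the adaptors, Irs1 (ENSMUSG00000055980, chromosome 1, 82233101 to 82291416, minus strand) read 33.3, 30.1, 33.5 and 26.9 CPM in WT CD and 35.1, 35.6, 26.0, 31.2 and 48.1 CPM in WT ERTU. It read 46.5, 36.2, 35.1, 40.0 and 31.6 CPM in Gαq CD and 36.1, 40.8, 36.0 and 43.3 CPM in Gαq ERTU. Most Gαq values were above most WT values, with 1 WT ERTU heart, number 15, the highest of all 18. The log2 difference was 0.22 ± 0.0997 (unadjusted p = 0.0380, adjusted p = 0.130 by edgeR), and without WT ERTU 15 it was 0.29 (adjusted p = 0.0193).

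Irs2 (ENSMUSG00000038894, chromosome 8, 10984681 to 11008458, minus strand), an adaptor whose transcription insulin represses in liver, had the widest range of the set, from 12.9 to 55.1 CPM. It read 33.0, 15.1, 24.1 and 29.5 CPM in WT CD and 55.1, 39.5, 28.9, 29.1 and 20.6 CPM in WT ERTU. It read 22.1, 12.9, 14.8, 18.2 and 19.8 CPM in Gαq CD and 23.2, 26.6, 26.4 and 35.8 CPM in Gαq ERTU. Every Gαq ERTU heart was above every Gαq CD heart, whereas the WT groups overlapped. By genotype the log2 difference was -0.42 ± 0.17 (adjusted p = 0.0929 by edgeR), and it passed the threshold without WT CD 2 (adjusted p = 0.0443) or WT ERTU 15 (0.0336).

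The atrogenes were lower on average in Gαq CD, within the spread. Fbxo32 (ENSMUSG00000022358, chromosome 15, 58175879 to 58214932, minus strand) read 327, 259, 188 and 276 CPM in WT CD and 432, 290, 236, 205 and 312 CPM in WT ERTU. It read 301, 163, 168, 237 and 259 CPM in Gαq CD and 245, 294, 276 and 239 CPM in Gαq ERTU. The 4 groups overlapped, and the lowest 2 hearts of all were in Gαq CD. The log2 difference by genotype was -0.19 ± 0.14 (adjusted p = 0.386 by edgeR).

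Trim63 (ENSMUSG00000028834, chromosome 4, 134315120 to 134329629, plus strand) read 413, 377, 251 and 270 CPM in WT CD and 642, 333, 291, 250 and 316 CPM in WT ERTU. It read 300, 200, 230, 238 and 309 CPM in Gαq CD and 404, 290, 289 and 276 CPM in Gαq ERTU. A single WT ERTU heart stood far above all others, and the groups otherwise overlapped. The log2 difference by genotype was -0.29 ± 0.16 (adjusted p = 0.218 by edgeR).

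The start-site sequence of Trim63 is shown because Trim63 is the member whose promoter window holds a FoxO element, and because its level varied with that of Fbxo32 between hearts, as described further on. RefSeq windows of build GRCm38.p6, from 250 bases before to 50 bases after the start, were at hand for 8 of the 10 genes. Insr and the other atrogene, Fbxo32, had no window and were not searched. The window chr4:134314870-134315169 on the plus strand is printed 5′ to 3′, with 2 motifs in capitals, first the glucocorticoid receptor palindrome and then, 1 base on, the FoxO element GTAAACA read from the opposite strand as TGTTTAC.
Trim63: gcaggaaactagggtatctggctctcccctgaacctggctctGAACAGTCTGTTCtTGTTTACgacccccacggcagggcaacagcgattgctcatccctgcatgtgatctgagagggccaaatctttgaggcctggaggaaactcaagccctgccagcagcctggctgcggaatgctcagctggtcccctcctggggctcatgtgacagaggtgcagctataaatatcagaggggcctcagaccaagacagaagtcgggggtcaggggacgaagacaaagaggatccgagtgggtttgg
The palindrome lies at positions -208 to -196 and the FoxO element at -194 to -188 from the start site. On either strand GTAAACA is found in 1199 of 32851 mouse promoter windows (3.65%) and the palindrome in 19 (0.0578%), and among the members with a window both are in Trim63 alone. The core CAAAACA of the insulin response element, in 6.28% of windows, is found in Irs1 and Irs2. These matches describe letters in a window and say nothing of binding in these hearts.

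The comparison of diets asked whether ERTU changed the pathway. No member passed the threshold by diet over both genotypes, in WT or in Gαq, by edgeR, by DESeq2 or by limma voom, and over all genes the called share was 0.0% by diet, 0.0% for ERTU in WT and 0.00615% for ERTU in Gαq. At an unadjusted p under 0.05 there were 2 members by diet (Irs2 and Foxo3), 0 for ERTU in WT and 1 for ERTU in Gαq (Irs2), against 7.7%, 2.24% and 7.62% of all genes. Irs2 had the widest difference of the members, 0.56 ± 0.17 on the log2 scale (1.48-fold, 95% interval 0.20 to 0.92, unadjusted p = 0.00368, adjusted p = 0.639 by edgeR). It was 0.45 in WT and 0.68 in Gαq. In Gαq, where Gnaq also differed between diets in mean level as given above, the 2 diets did not overlap for Irs2, from 12.9 to 22.1 CPM on CD and from 23.2 to 35.8 CPM on ERTU, a separation seen in 1.6% of all genes. The 2 atrogenes differed by diet by 0.20 ± 0.14 for Fbxo32 and 0.23 ± 0.16 for Trim63, intervals that include 0. All 10 log2 differences for ERTU in WT were above 0, from 0.017 to 0.45, as were those of 51.5% of all genes. However, 7 of the 10 changed sign when 1 library was left out, and Irs1, Irs2 and Foxo3 did not.

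Whether ERTU acted differently in the genotypes was tested as an interaction. The share called was 0.0% of all genes, no member had an unadjusted p under 0.05 against 1.92% of all genes, and the member estimates ran from -0.32 to 0.23 on the log2 scale. The separation of Irs2 on ERTU in Gαq hearts is therefore not shown to differ from the difference in WT. Within each diet, no member was called for Gαq on CD (8.1% of all genes) or for Gαq on ERTU (8.17%) by edgeR. Akt2 and Irs2 on CD and Akt2 on ERTU had an unadjusted p under 0.05, as had 21.0% and 21.7% of all genes. Akt2 on ERTU, where the groups did not overlap (as in 10.9% of all genes), was called by DESeq2 (adjusted p = 0.0295) and by limma voom (0.0164). No member separated the groups for Gαq on CD (9.29% of all genes) or for ERTU in WT (0.756%). The genotype comparisons share libraries with the diet comparisons, so their values are not independent.

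Around the members, genes of 6 related lists were examined by genotype. Of 7 IGF ligand and binding protein genes tested, 4 rose and none fell, where 9.72% of all genes were called higher, with a median of 0.45 against 0.0038 over all genes. These were the binding proteins Igfbp6 (0.96 ± 0.15, adjusted p = 0.000122), Igfbp7 (0.56 ± 0.092, 0.000153), Igfbp3 (0.78 ± 0.19, 0.00637) and Igfbp4 (0.45 ± 0.15, 0.0360), which hold insulin-like growth factors or related ligands outside the cell (edgeR). Igfbp6 went from 24.0 CPM in WT CD to 41.4 CPM in Gαq CD, and from 22.3 to 49.0 CPM on ERTU. The call of Igfbp4 was lost in 11 of 18 fits that left out 1 library, with an adjusted p of up to 0.0744, and kept only without WT CD 1, WT CD 5, Gαq CD 6, Gαq CD 7, Gαq CD 9, WT ERTU 14 or Gαq ERTU 17. The summed fibroblast markers, given above, were also higher in Gαq libraries, and their part in these rises was not tested.

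Of 15 genes of the adaptor and lipid kinase arm, 3 fell and none rose, a share near the 19.6% called over all genes, and the median was 0.017. They were Grb14, an adaptor that inhibits the insulin receptor (-0.67 ± 0.087, adjusted p = 1.02e-05), Gab1, a docking protein (-0.31 ± 0.083, 0.00955), and Pik3r1, the regulatory subunit of the lipid kinase (-0.43 ± 0.13, 0.0188), by edgeR. Grb14 went from 185 ± 27.3 CPM in WT CD to 112 ± 11.4 CPM in Gαq CD (SD, n = 4 and 5) and its 2 genotypes did not overlap on either diet. Pik3r1 was not called by limma voom (adjusted p = 0.0643) or without WT CD 1 (0.0513).

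Of 20 genes of the AKT arm, 7 fell and none rose, where 19.6% of all genes were called and 9.92% were called lower, with a median of -0.17. The 4 with the smallest adjusted p by edgeR were Slc2a4, the insulin-responsive glucose transporter (-0.56 ± 0.12, adjusted p = 0.00156), Mtor, the growth kinase (-0.45 ± 0.10, 0.00367), Tbc1d4, the AKT substrate that holds that transporter inside the cell (-0.48 ± 0.11, 0.00388), and Rptor, a partner of Mtor (-0.38 ± 0.090, 0.00421). Slc2a4 averaged 378 CPM in WT CD, 395 in WT ERTU, 274 in Gαq CD and 249 in Gαq ERTU. The number of calls in this list was 7 or 8 in all 18 fits that left out 1 library.

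Of 18 FoxO factors and FoxO-linked genes, 5 fell and none rose, where 19.6% of all genes were called and 9.92% were called lower, with a median of -0.17. The mitochondrial superoxide dismutase Sod2 fell by 0.50 on the log2 scale (adjusted p = 4.51e-05 by edgeR), and Foxo4, another FoxO factor, fell by 0.25 (0.0144). The metabolic regulator Klf15 fell by 0.58 (0.0162) and catalase, Cat, by 0.46 (0.0358). The number of calls was 3 without WT CD 1, WT CD 2, WT CD 5, Gαq CD 7, Gαq CD 8, Gαq CD 9, WT ERTU 11, Gαq ERTU 17 or Gαq ERTU 18. In each of these 9 fits, and without Gαq ERTU 20, the call of Cat was lost (adjusted p of up to 0.0850). Of 19 ubiquitin ligase and proteolysis genes tested, 1 rose and 3 fell, again near the 19.6% of all genes, with a median of -0.028. Follistatin (Fst), a secreted antagonist of myostatin, rose by 1.05 (adjusted p = 0.0103 by edgeR) from a low level, with group means of 0.821 to 2.11 CPM, and by 0.47 on the deposited transformed values. The protease Capn3, also low at 1.02 to 2.07 CPM, fell by 0.77 (0.00849) and by 0.35 on the deposited values, and the ubiquitin ligase components Fbxo31 and Asb2 fell by 0.81 (0.0122) and by 0.45 (0.0129).

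Of 7 genes that rise in the fasted heart, 4 fell in Gαq and none rose, where 9.92% of all genes were called lower, with a median of -0.81. Among them were the lipid droplet gene Plin5 (-0.81 ± 0.18, adjusted p = 0.00300), the mitochondrial carrier Ucp3 (-1.47 ± 0.46, 0.0268) and the acyl-CoA thioesterase Acot1 (-1.51 ± 0.48, 0.0280) by edgeR. The count was 2 by limma voom, 2 without WT CD 1, Gαq CD 8 or Gαq ERTU 17, and 1 without WT CD 2. Acot1 was lost without WT CD 2, Gαq CD 8 or Gαq ERTU 17, and Ucp3 without WT CD 1 or WT CD 2, all at an adjusted p of at most 0.0607. By diet no gene of the 6 lists was called by edgeR. The log2 difference by diet was above 0 for all 7 fasting genes (median 0.56) and for 15 of 18 FoxO factors and FoxO-linked genes (median 0.26), as for 49.5% of all genes. At an unadjusted p under 0.05 there were 4 and 6 of these, against 7.7% of all genes, and neither list was tested as a whole.

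Some hearts stood at one end of their group for many members. WT ERTU 11 was the highest of its group for 9 of the 10 genes, all but Irs1. WT CD 4 was the lowest of its group for 6, including Foxo1, Foxo3, Fbxo32 and Trim63, but the highest for Irs1 and Akt2, and WT CD 1 was the highest for 5, including the same 4. WT ERTU 14 was the lowest of its group for 5, Insr, Igf1r, Akt2, Fbxo32 and Trim63. In this heart the atrium markers lay 3.97 log2 units above the group mean and the fat markers 1.19 above it. Its fibroblast markers lay 0.43 above the group mean and its cardiomyocyte markers 0.30 below it. Gαq CD 6 was the highest of its group for 5 genes, and Gαq CD 7 and Gαq CD 8 were the lowest for 4 each. The atrium and fat markers of the low hearts differed in sign. Relative to the group mean, the atrium markers stood at -3.00 in WT CD 4, -3.13 in Gαq CD 7 and 4.88 in Gαq CD 8. The fat markers stood at -0.74, -1.48 and 2.05 in the same order. In WT ERTU 11 the fibroblast markers lay 0.29 log2 units below the group mean and the cardiomyocyte markers 0.12 above it. Its atrium markers stood at -2.30 and its fat markers at 0.52. The part of any of these lists in the pattern was not tested.

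Pdk4, the kinase that shuts off pyruvate oxidation in fasting and a FoxO-linked gene, differed many-fold between hearts of a group. It read 3976, 3504, 166 and 3500 CPM in WT CD and 1873, 150, 261, 105 and 1818 CPM in Gαq CD. On ERTU it read 6869, 4200, 3194, 3093 and 1677 CPM in WT and 2041, 1308, 1508 and 2471 CPM in Gαq. WT CD 4, the low heart for 6 members, was the heart with 166 CPM, and the Gαq CD hearts with 1873 and 1818 CPM, numbers 6 and 10, were also the 2 highest of their group for Foxo3, Fbxo32 and Trim63. The low values of WT ERTU 14 were not matched in Pdk4, which lay 0.15 log2 units below its group mean. Other hearts did not match either. Gαq CD 9, with the lowest Pdk4 of all hearts at 105 CPM, was the lowest of its group for 0 members. Its Fbxo32 lay 0.11 log2 units above the group mean. WT ERTU 15, the lowest of its group in Pdk4 at 1677 CPM, had Fbxo32 0.13 above the group mean. WT CD 2, at 3504 CPM, was the lowest of its group for Igf1, Irs2 and Akt2. No ERTU heart was below 1308 CPM. The labels do not give the feeding state at tissue collection, and its part in these values was not tested.

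**Figure D3:**
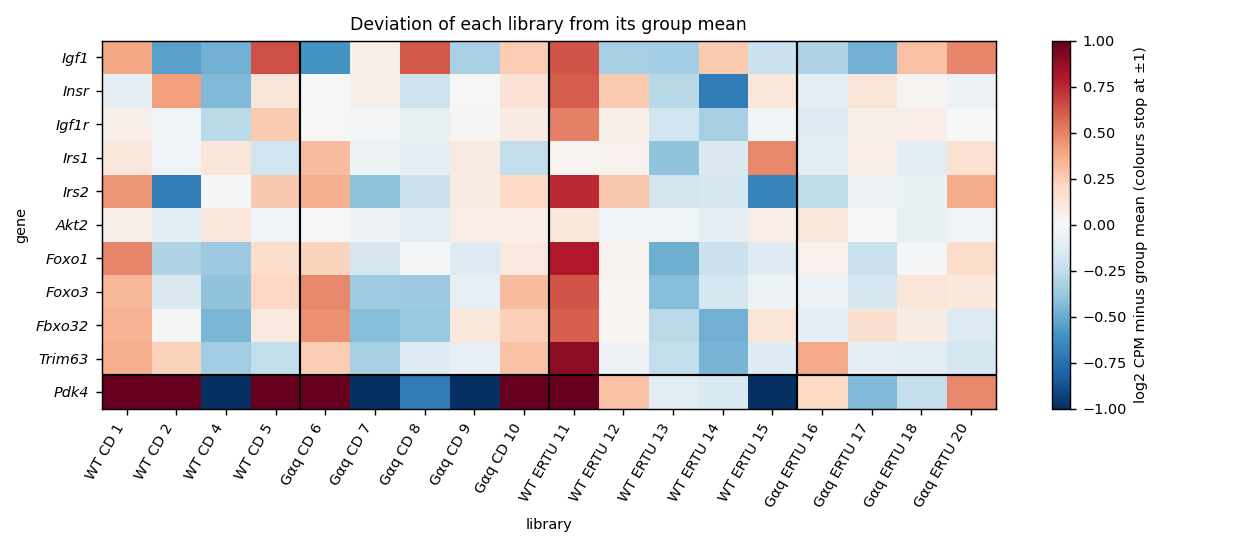
Log2 CPM of each library (columns, grouped by black lines) minus its group mean for the 10 genes and Pdk4 (rows); red is above and blue below the group mean, and colours stop at ±1. WT ERTU 11 is above its group mean for all 10 members, only slightly so for Irs1, and WT CD 4 is blue for the FoxO factors and both atrogenes and for Pdk4.

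To ask whether genes that stand in one chain varied together, log2 CPM deviations from the group mean were correlated over the 18 libraries for 6 pairs, with libraries permuted within group. Pairs of other genes were not tested as a background, so the values do not show that a relation is particular to the chain. Within groups, Foxo1 had r = 0.930 with Furin, a gene outside the lists that is described further on. Furin was picked for the highest r with Foxo1 over the 18 libraries among 10150 genes, so its value is not a background either. Foxo3 and Fbxo32 had the closest relation (Pearson r = 0.877, permutation p = 0.00033, adjusted p = 0.00198, and Spearman rho = 0.808, adjusted permutation p = 0.00657). Without the 2 libraries farthest from the median of Foxo3, WT ERTU 11 and Gαq CD 6, r was 0.794. The relation therefore did not rest on those hearts, and leaving out each library in turn gave r from 0.828 to 0.920.

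Fbxo32 and Trim63 also moved together (r = 0.775, permutation p = 0.00126, adjusted p = 0.00378, rho = 0.748, adjusted permutation p = 0.00657, and r = 0.640 without WT ERTU 11 and WT ERTU 14). Foxo1 and Fbxo32 gave r = 0.708 (permutation p = 0.00414, adjusted p = 0.00828, rho = 0.622, adjusted permutation p = 0.0294), and r was 0.520 without WT ERTU 11 and WT CD 1. For Foxo1 and Fbxo32 the adjusted permutation p was 0.0692 without WT ERTU 11. Foxo1 and Trim63 gave r = 0.733 (permutation p = 0.0178, adjusted p = 0.0267), but rho was 0.573 (adjusted permutation p = 0.0601) and r dropped to 0.401 without WT ERTU 11 and WT CD 1, so this relation rests largely on those hearts. Its adjusted permutation p was 0.241 without WT ERTU 11, 0.0596 without WT CD 1 and 0.0518 without WT CD 4.

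For the pairs with an adaptor no relation was detected. Insr and Irs2 gave r = 0.198 (permutation p = 0.582, adjusted p = 0.698, rho = 0.139, adjusted permutation p = 0.641, and r = -0.175 without WT ERTU 14 and WT ERTU 11). Irs1 and Irs2 gave r = 0.0192 (permutation p = 0.956, adjusted p = 0.956, rho = 0.240, adjusted permutation p = 0.459, and r = 0.348 without WT ERTU 15 and WT ERTU 13). Within single groups of 4 or 5 libraries, which are too few for a test, r for Foxo3 and Fbxo32 was 0.944 in WT CD, 0.886 in WT ERTU, 0.961 in Gαq CD and -0.472 in Gαq ERTU. For Fbxo32 and Trim63 it was 0.744, 0.936, 0.888 and -0.360 in the same order, and for Foxo1 and Fbxo32 0.856, 0.874, 0.751 and -0.926. For Foxo1 and Trim63, in the same order, r was 0.450, 0.934, 0.889 and 0.0618. The Gαq ERTU group, whose Foxo3 and Fbxo32 values spanned the narrowest range, has the opposite sign in the first 3 of these pairs. It does not for Foxo1 and Trim63, and the difference between groups was not tested.

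**Figure D4:**
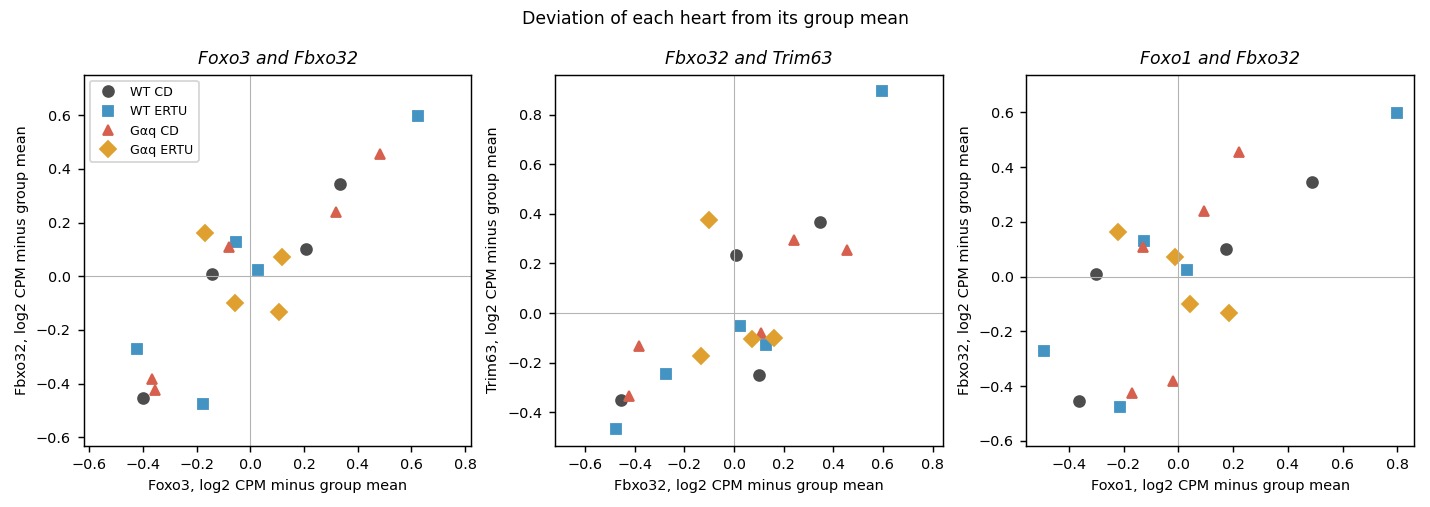
Deviation of log2 CPM from the group mean in each of the 18 hearts for 3 pairs of genes, coloured by group. Points of WT CD, WT ERTU and Gαq CD run from lower left to upper right (r = 0.877, 0.775 and 0.708 over all hearts), while the 4 Gαq ERTU hearts slope the other way (r = -0.472, -0.360 and -0.926).

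For the 2 members that passed the threshold, the genes with the most similar profile over the 18 libraries were sought among 10150 genes with a mean log2 CPM of at least 3. Akt2 was closest to Cdk16, a kinase of the cyclin-dependent family, with r = 0.910, and to Ecsit, a mitochondrial complex I assembly factor, with r = 0.902. With group means removed these were 0.750 and 0.759. Foxo1 was closest to Furin, a proprotein convertase (r = 0.936, and 0.930 within groups), and to Ranbp9, a scaffold protein (r = 0.918 and 0.899). These values describe likeness over libraries that also share the 2 treatments.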

How the data were processed

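The authors deposited raw counts of read pairs for each Ensembl gene. They aligned reads with STAR 2.6.0c to mm10 and counted uniquely aligned proper pairs over nuclear genes with featureCounts (Subread 1.6.2). A deposited table of log2-like values, made by the authors with the variance-stabilizing transformation of DESeq2, was used as an alternative, and recomputing it from the counts differed by at most 5.2e-11. Symbols came from GENCODE M21 (55104 of 55450 genes).

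Counts were analysed with edgeR 4.0.16 in R 4.3.3. filterByExpr kept 16270 genes (0.0906% of counts left out), scaling was by TMM, and quasi-likelihood tests were adjusted by Benjamini-Hochberg over all genes tested, threshold 0.05. Genotype and diet came from an additive model, and pairs of groups and the interaction from a model with 1 mean per group. CPM values are TMM-scaled, with a prior count of 2 on the log2 scale. Levels per kilobase used exon union lengths. Permutation tests (Python 3.11.15) were 2-sided, with 1e+05 resamples for correlations, and exact over libraries for marker lists. Genes antisense to Irs1, Irs2, Foxo1 and Fbxo32 had at most 7 counts in any library.

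Named genes were all members, up to 4 genes per pathway list past the threshold by genotype with the smallest adjusted p, any past it by a diet comparison, and the 2 nearest profiles of each called member. Pdk4 was named after its values were seen, and 1 gene that the rule names is not reported here. The members and lists were chosen with earlier results of these data known. On simulated data for ERTU in Gαq (16042 genes, fold 2), 176 of 200 changed genes were called, with 4 false calls. The largest member difference for ERTU in Gαq was 1.60-fold, in Irs2. The simulation does not show how often differences of that size would be called. Alternatives were median-of-ratios scaling, other filters, DESeq2 1.42.0, limma 3.58.1 (voom, and on the deposited values), other models and leaving out each library. Libraries are separate hearts, and the labels give no litter or batch. All columns were used.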

Additional observations from a re-analysis of the deposited data

Results flagged for a closer look

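Trim63 in Gαq ERTU 16 stood apart from its group. Its level was 404 CPM against 276 to 290 CPM in the other 3 Gαq ERTU hearts, and the gap to the nearest of them was 0.869 of the range of the group on the log2 scale. It was the only value so marked among 40 sets of 4 or 5 libraries examined, 1 for each gene and group, of which chance marks about 1 in 20. Without Gαq ERTU 16 the log2 difference of Trim63 on ERTU in Gαq was 0.16, against 0.30 with it, and neither passed the threshold.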

How the results depend on the processing

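No paired analysis was possible because the table numbers libraries across the series and carries no number shared between groups, so the planned replicate block was not run. By genotype, the 2 members called became 1 with no filter on low counts (Foxo1, with Akt2 at an adjusted p of 0.0652), 1 by limma on the deposited values (Akt2, with Foxo1 at 0.0722) and 1 with the averaged contrast of a model with 1 mean per group (Akt2, with Foxo1 at 0.0557), and 1 to 4 when 1 library was left out. By limma voom the 2 were Akt2 and Igf1r (0.0450), with Foxo1 at 0.125. Akt2 remained called in each leave-one-out fit (adjusted p 0.00788 to 0.0289). For Gαq on ERTU, 0 members became 1 (Akt2) by DESeq2 and by limma voom. By limma voom the 4 fasting genes called became 2.

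Signs changed only for log2 differences that no test called. By limma voom these were Igf1 (-0.038), Foxo1 (-0.043) and Trim63 (-0.021) for ERTU in WT, Igf1 for ERTU in Gαq (0.019), by diet (0.029) and for Gαq on ERTU (0.32), and Insr by diet (-0.0016). Insr for ERTU in WT was -0.0075 on the deposited values. Akt2 by diet was 0.00081 with median-of-ratios scaling, 0.0013 by DESeq2 and 0.0017 on the deposited values. Igf1 for Gαq on ERTU was 0.0067 with no filter and 0.0028 with a mean CPM of at least 1.

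Leaving out 1 library gave ranges across 0 for diet in Insr (-0.065 to 0.087), Akt2 (-0.021 to 0.017), Igf1 (-0.19 to 0.0018) and Foxo1 (-0.013 to 0.19). For Gαq on ERTU they were -0.18 to 0.19 in Igf1, -0.27 to 0.014 in Fbxo32 and -0.36 to 0.081 in Trim63. For ERTU in WT they were -0.15 to 0.17 in Insr, -0.12 to 0.31 in Igf1, -0.021 to 0.059 in Akt2, -0.079 to 0.16 in Igf1r, -0.15 to 0.29 in Foxo1, -0.0083 to 0.29 in Fbxo32 and -0.14 to 0.29 in Trim63. For ERTU in Gαq they were -0.034 to 0.052 in Insr, -0.013 to 0.13 in Irs1 and -0.062 to 0.0022 in Akt2. The correlation ran from -0.094 to 0.467 for Irs1 and Irs2, from -0.138 to 0.498 for Insr and Irs2, from 0.463 to 0.832 for Foxo1 and Trim63, and from 0.567 to 0.760 for Foxo1 and Fbxo32. Calls by genotype ran from 1 to 5 fasting genes and from 3 to 6 FoxO factors and FoxO-linked genes. Alternatives for the other lists were chosen after seeing the data. With 4 or 5 libraries per group, the 95% intervals for Irs2 reach 0.92 by diet over both genotypes, 0.96 in WT and 1.19 in Gαq, and depth did not limit any member, the lowest count being 265.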
